A study of Mus musculus with 15 samples.

Results

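WNT signalling in whole mouse lungs was followed here through 10 genes, found by symbol among the 23420 genes of the raw count tables: the ligands Wnt2, Wnt2b, Wnt5a, Wnt7b and Wnt11, the R-spondin Rspo2, the secreted inhibitors Wif1 and Notum, and the intracellular readout genes Axin2 and Lef1. All 10 passed the filter on low counts in both tables. The lungs came from wild-type embryos of CD1, an outbred mouse strain, with no transgene or deletion named in the labels. Explants taken at E12.5 (E, embryonic day) were cultured for 48 h at high or at low transmural pressure, that is, fluid pressure inside the airway relative to outside, while uncultured lungs were dissected on each of 3 successive days (E12.5, then E13.5, then E14.5). Each of the 5 groups held 3 libraries of total RNA. A library pooled 3 lungs at high pressure, E13.5 and E14.5 and 6 lungs at low pressure and E12.5. Whether pools within a group came from separate litters or cultures is not stated, and p-values therefore cover only the spread among these pools, which can be technical.

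WNT ligands are lipid-modified secreted proteins that bind Frizzled receptors with a co-receptor. In the canonical branch this halts the destruction of beta-catenin, which enters the nucleus and switches on target genes through factors of the TCF/LEF family. In the embryonic lung Wnt2 and Wnt2b come from the mesenchyme and are needed for the lung to be specified, Wnt7b comes from the airway epithelium, and Wnt5a and Wnt11 are best known for signalling that does not pass through beta-catenin. R-spondins strengthen the canonical signal by removing the ubiquitin ligases that clear Frizzled receptors. Wif1 binds and blocks WNT proteins, Notum removes their lipid, and Axin2 is a scaffold of the beta-catenin destruction complex that is itself a target gene.

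Total counts were 40167255 to 44341263 per library at high pressure, 31843739 to 38288861 at low pressure and 18837343 to 21955244 in the fresh lungs. Markers of airway epithelium and of lung mesenchyme were detected in every group, with 0 of 10 genes at 0 in either list, as a lung label requires. The summed epithelial markers stood at 1831 to 1930 CPM (read counts scaled to a common library total) at high and 1025 to 1144 CPM at low pressure, and 9 of those 10 genes were higher and 1 lower at high pressure. Summed mesenchymal markers were at 9153 to 11560 CPM at high and 7199 to 8212 CPM at low pressure, with 3 of 10 genes higher and 4 lower. Most of that sum was Col1a1 (on average 2524 CPM at high and 1099 CPM at low pressure), Col1a2 (3200 and 1643) and Col3a1 (3989 and 3486). The 4 lower genes, Foxf1, Twist1, Pdgfra and Tbx5, made up less of it, so the sum does not measure the amount of mesenchyme. Summed endothelial markers were at 96.3 to 221 CPM at high and 219 to 345 CPM at low pressure, with 0 of 7 genes higher and 2 lower. All 7 had a negative log2 fold change, with a median of -1.17. Of all genes tested in this fit 14% passed as higher and 12.2% as lower. With a term for the replicate number in the fit 6 of the 7 endothelial markers were lower, beside 1420 of all 14937 genes. Ribosomal protein genes took 3.06% to 3.36% of the counts at high and 1.93% to 2.20% at low pressure, and in the fresh lungs 3.59% to 4.36% in replicate 1 against 1.77% to 2.24% in replicates 2 and 3. In low pressure replicate 3, 14637 genes had a count, against 16509 to 16726 in each of the other 5 cultured libraries. The part these features play in the results below was not tested.

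The members that the comparisons turn on are shown by the start of their genes, since these are the windows in which a TCF/LEF word could be looked for. The sequences are RefSeq's on build GRCm38.p6, each 300 bases from 250 before to 50 after an annotated start, read in the direction of transcription, with any TCF/LEF word in capitals.
Lef1 (chr3:131110047-131110346, plus strand, chosen as the first of its 4 annotated starts): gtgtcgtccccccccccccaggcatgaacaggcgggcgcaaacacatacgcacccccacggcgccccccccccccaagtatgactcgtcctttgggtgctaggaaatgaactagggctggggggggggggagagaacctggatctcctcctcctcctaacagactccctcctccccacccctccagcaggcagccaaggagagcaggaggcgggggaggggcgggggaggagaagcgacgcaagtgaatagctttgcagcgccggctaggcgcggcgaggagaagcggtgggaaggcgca
Wif1 (chr10:121033754-121034053, plus strand): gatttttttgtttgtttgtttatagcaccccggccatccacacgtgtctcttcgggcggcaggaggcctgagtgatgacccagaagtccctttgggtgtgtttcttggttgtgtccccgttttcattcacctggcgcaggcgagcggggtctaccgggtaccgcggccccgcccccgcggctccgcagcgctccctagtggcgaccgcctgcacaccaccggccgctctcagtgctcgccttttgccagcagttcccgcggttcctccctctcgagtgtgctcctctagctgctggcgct
Wnt11 (chr7:98834862-98835161, plus strand): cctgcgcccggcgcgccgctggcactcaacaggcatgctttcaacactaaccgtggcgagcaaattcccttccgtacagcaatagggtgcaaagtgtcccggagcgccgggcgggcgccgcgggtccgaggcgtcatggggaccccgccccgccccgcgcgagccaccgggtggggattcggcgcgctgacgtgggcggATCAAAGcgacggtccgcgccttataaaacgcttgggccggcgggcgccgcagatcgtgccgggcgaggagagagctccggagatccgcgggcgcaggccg
The word searched, on both strands, was CTTTG followed by A or T and again by A or T, which leaves 4 forms. Forms on opposite strands can overlap at their ends, and each window was counted once however many it held. The Wnt11 window held 1 word, CTTTGAT on the opposite strand (printed above as its reverse complement), beginning at position -51 from the start, and the Lef1 and Wif1 windows shown held 0. Of the members, 6 had entries in the table (Wnt2, Wnt2b, Wnt11, Axin2, Lef1 and Wif1) with 10 windows among them, of which 2 held a word, the other (CTTTGTA) belonging to Lef1, in the window of its most downstream start. Among all 32851 windows of that length 5544 held at least 1 word, or 16.9%. A match describes letters only and does not show that a factor binds there.

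Wnt2 had the highest level of the 10 genes per exon length in every group. On a scale of CPM per kb of exon, with all 15 libraries scaled together, it averaged 46.4 ± 4.21 at high pressure and 57.8 ± 10.5 at low pressure, and in fresh lungs 46.8 ± 5.62 (E12.5), 57.4 ± 16.0 (E13.5) and 52.9 ± 8.75 (E14.5; SD, n = 3 each). Wnt7b came second in every group, between 11.8 CPM per kb at E14.5 and 14.4 CPM per kb at E12.5. The widest span was that of Wif1, with 7.43 ± 2.41 CPM per kb at high pressure and 0.678 ± 0.176 CPM per kb at E12.5 (SD, n = 3 each). By level per kb Lef1 had rank 4 of 10 in low pressure, E12.5 and E13.5 lungs, rank 3 at E14.5 and rank 10 at high pressure, where it stood at 4.74 ± 0.530 CPM per kb (SD, n = 3).

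**Figure D1:**
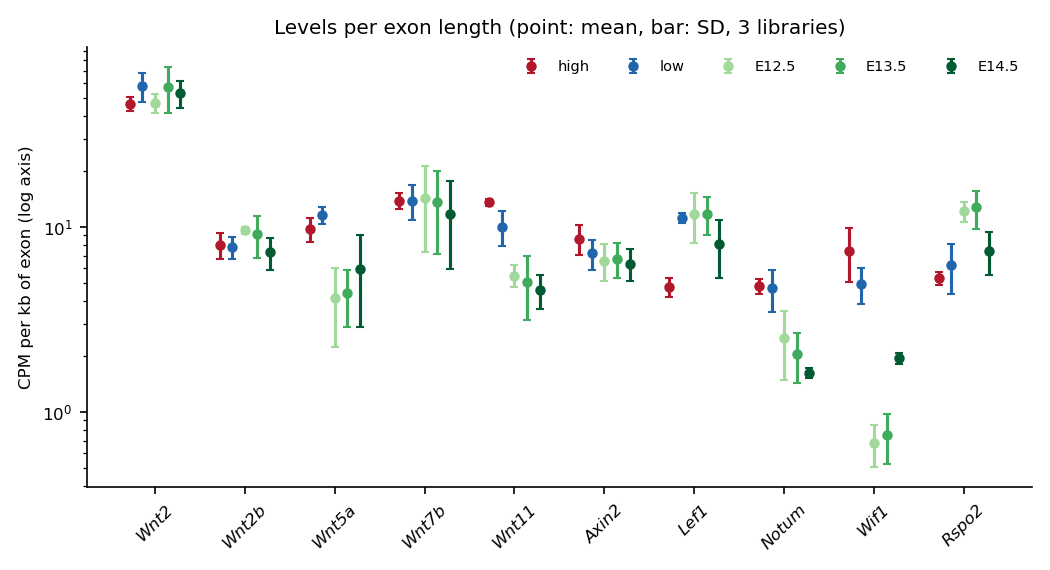
Mean level per kb of exon (log axis, CPM per kb, bars show SD over 3 libraries) for each member in the 5 groups, with all 15 libraries scaled together. Wnt2 lies above the other genes in every group, and Wif1 has its highest mean at high pressure (7.43 CPM per kb) and its lowest at E12.5 (0.678 CPM per kb).

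The first comparison asked whether pressure in culture altered the expression of WNT genes. Lef1, which encodes a transcription factor that carries the beta-catenin signal and is also its target, was the 1 of 10 members that passed the test, and it was lower at high pressure. For scale, 14% of all genes tested passed as higher, 12.2% as lower and 26.1% in either direction, so 1 call among 10 members is no more frequent than among genes at large. Lef1 (ENSMUSG00000027985.14, chromosome 3, 131110471 to 131224356, plus strand, GENCODE M21 on mm10) had 41.1, 37.6 and 46.6 CPM in the 3 high pressure libraries, against 101, 104 and 92.2 CPM in the 3 low pressure libraries. The groups did not overlap, the highest value at high pressure (46.6 CPM) lying below the lowest at low pressure (92.2 CPM). Such a lack of overlap, in either direction, was seen for 46.8% of all genes tested here. Its log2 fold change was -1.24 (SE 0.11), a ratio of 0.422, with an adjusted p = 0.00048 from edgeR's quasi-likelihood test.

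The other 9 members did not pass in the same fit. Axin2, a widely used readout of beta-catenin signalling, had 43.7, 41.8 and 57.7 CPM at high pressure, against 37.3, 33.8 and 47.9 CPM at low pressure. Those groups overlapped, and the log2 fold change was 0.27 (SE 0.17, edgeR adjusted p = 0.28). Notum, a target gene in several tissues as well as an inhibitor, had 12.7, 11.6 and 10.4 CPM at high pressure, against 8.73, 10.6 and 14.4 CPM at low pressure, a log2 fold change of 0.04 (SE 0.21). Its 3 high pressure values fell inside the range of the low pressure values. Wif1 had 13.3, 24.6 and 16.4 CPM at high pressure, against 12.2, 9.29 and 14.53 CPM at low pressure (log2 fold change 0.59, SE 0.25, edgeR adjusted p = 0.119). High pressure replicate 2 held the highest Wif1 value of all 15 libraries.

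**Figure D2:**
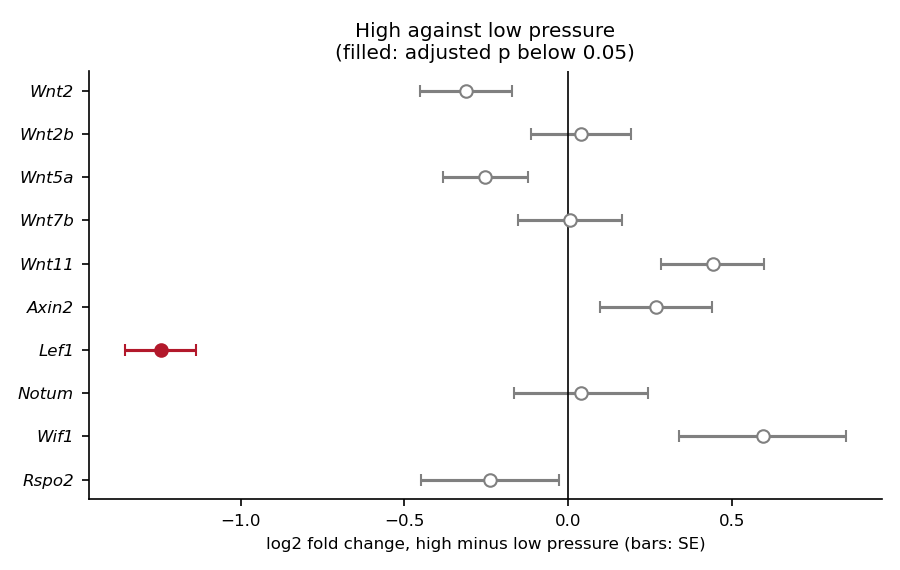
Log2 fold change of each member for high minus low pressure (x axis), with its SE as bars, in 3 libraries a group. Lef1 at -1.24 is the filled point past the threshold, and the other members lie between -0.31 and 0.59.

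Among the ligands, Wnt11 came nearest to a call. It had 54.1, 58.0 and 57.3 CPM at high pressure, against 50.3, 42.4 and 32.1 CPM at low pressure. These groups did not overlap, as was the case for 46.8% of all genes tested in this comparison, and the log2 fold change was 0.44 (SE 0.16, edgeR adjusted p = 0.0707). DESeq2, which called 32.5% of all genes here, placed Wnt11 past the threshold (0.43, adjusted p = 0.0451) and with it 2 of 10 members. Wnt2 had 96.5, 104 and 114 CPM at high pressure, against 142, 146 and 103 CPM at low pressure (log2 fold change -0.31, SE 0.14, edgeR adjusted p = 0.135). Low pressure replicate 3 sat among the high pressure values for Wnt2. With offsets for GC content and length its log2 fold change was -0.65 (edgeR adjusted p = 0.00737), in a fit that called 2 of 10 members (Wnt2 and Lef1) and 17.7% of all genes. Wnt5a had 65.1, 86.9 and 77.9 CPM at high pressure, against 98.9, 94.3 and 80.5 CPM at low pressure (log2 fold change -0.25, SE 0.13).

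Wnt7b and Wnt2b showed the smallest differences of the ligands. The epithelial ligand Wnt7b averaged 68.3 ± 7.25 CPM at high and 68.0 ± 14.8 CPM at low pressure (SD, n = 3 each), a log2 fold change of 0.01 (SE 0.16), beside a median log2 fold change of 0.96 over the 10 epithelial markers. Wnt2b averaged 33.7 ± 5.21 CPM at high and 32.8 ± 4.44 CPM at low pressure (SD, n = 3 each), with a log2 fold change of 0.04 (SE 0.15). Rspo2, a secreted amplifier of the canonical signal that is made by lung mesenchyme, averaged 27.1 ± 2.22 CPM at high and 31.9 ± 9.60 CPM at low pressure (SD, n = 3 each), with a log2 fold change of -0.24 (SE 0.21). Without low pressure replicate 2, its highest library of that group, the value for Rspo2 was -0.0105. In bulk samples such as these, fewer cells of a type and less RNA per cell cannot be told apart.

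How many members passed depended on low pressure replicate 3. In that library every one of the 10 members had either the highest or the lowest value of the low pressure group, as did 87.3% of all genes tested. Without it 7 of 10 members passed, beside 41.1% of all genes: Wnt11 (log2 fold change 0.29, edgeR adjusted p = 0.0348), Axin2 (0.43, 0.0309) and Wif1 (0.76, 0.0484) were higher, and Lef1 (-1.29, 1.30e-05), Wnt2 (-0.45, 0.00168), Wnt5a (-0.33, 0.0329) and Rspo2 (-0.45, 0.0132) were lower. The low pressure group then held 2 libraries. Without low pressure replicate 1, Wnt11 (0.60, edgeR adjusted p = 0.0288) passed as well as Lef1, and the share of all genes called is not given here. Lef1 was lower and past the threshold in all 13 alternatives run, at -1.34 to -1.10.

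**Figure D3:**
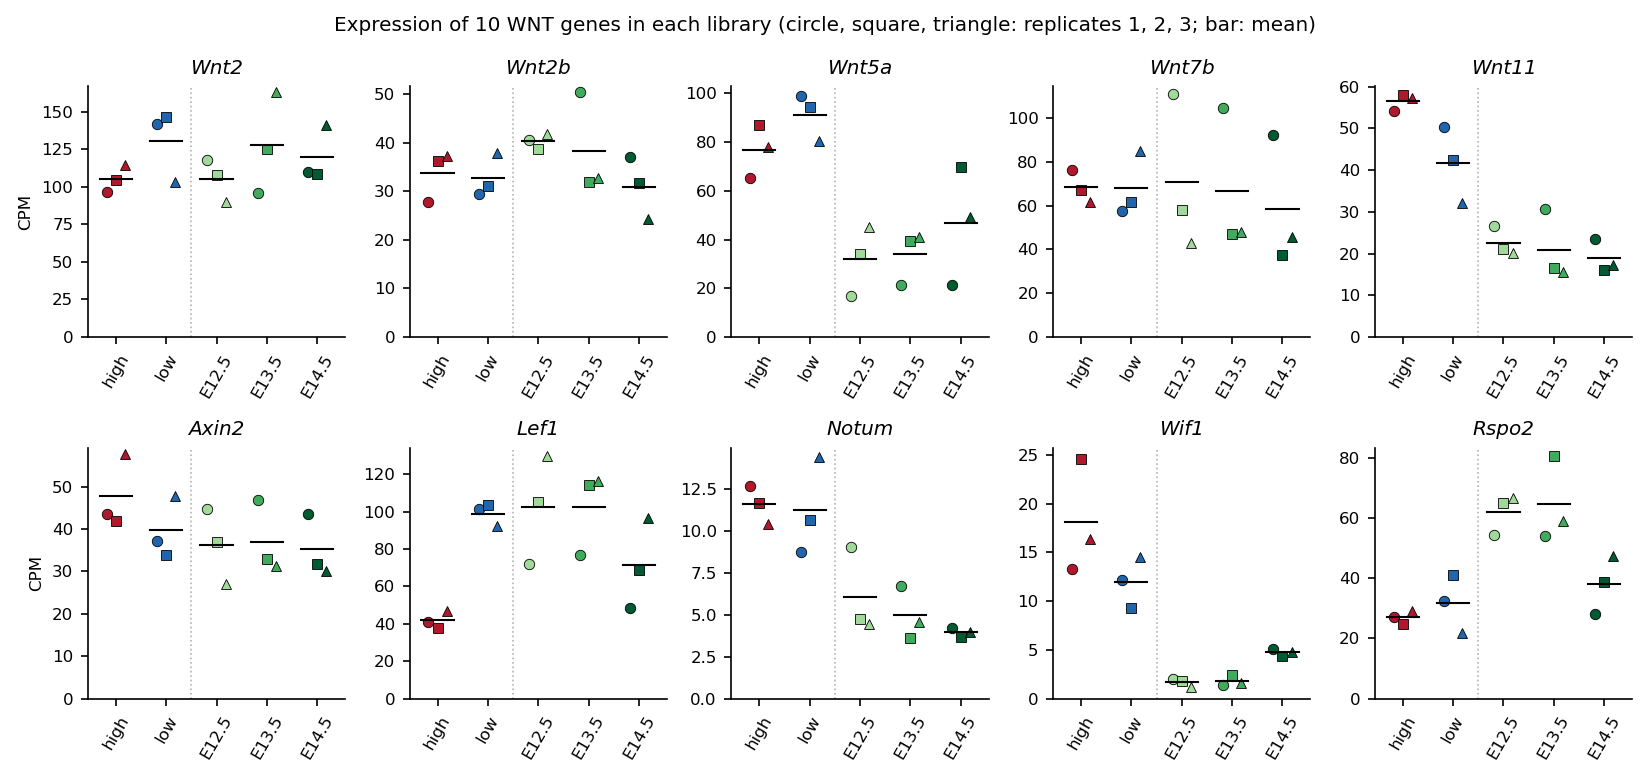
CPM of each member (y axis) in the 15 libraries by group (x axis), scaled within each table, with circles, squares and triangles for replicates 1, 2 and 3 and a bar for the mean. Lef1 at high pressure (37.6 to 46.6 CPM) lies under every low pressure library, and in the fresh lungs replicate 1 stands apart for Wnt7b and Wnt5a.

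Beyond the members, the pathway lists were counted at the 2 pressures, where 14% of all genes tested passed as higher and 12.2% as lower. The list of 19 Wnt ligands had 11 tested genes, of which 2 were higher and 0 lower. Its median log2 fold change was 0.04, beside 0.01 over all genes. Wnt7a rose by 2.27 on the log2 scale (SE 0.40, edgeR adjusted p = 0.0051), at 4.79 ± 1.03 CPM at high and 0.989 ± 0.459 CPM at low pressure (SD, n = 3 each). Wnt4, a ligand known from kidney and female tract development, rose too, at 25.4 ± 2.41 CPM at high and 12.54 ± 1.47 CPM at low pressure (SD, n = 3 each), a log2 fold change of 1.02 (SE 0.14). Wnt5b (0.53, edgeR adjusted p = 0.0902) did not pass. Porcn (-0.25) and Wls (-0.06), whose products attach the lipid to WNT proteins and carry them to the cell surface, did not pass either.

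In the list of receptors and co-receptors 1 of 18 genes rose and 5 fell at high pressure, beside 14% and 12.2% of all genes. Fzd3, a Frizzled receptor, fell by 0.86 on the log2 scale (SE 0.12), and Ror1, a receptor for Wnt5a, fell by 0.72 (SE 0.12). Fzd6 (-0.56) and Kremen2 (-1.71) fell as well, the second at 0.777 ± 0.222 CPM at high and 2.55 ± 1.17 CPM at low pressure (SD, n = 3 each). The median log2 fold change of the list was 0.02. Of 9 genes of the R-spondin module 1 rose and 1 fell. Lgr4, an R-spondin receptor, stood at 30.7 ± 6.42 CPM at high and 71.4 ± 13.52 CPM at low pressure (SD, n = 3 each), a log2 fold change of -1.22 (SE 0.18, edgeR adjusted p = 0.00288). Rnf43, one of the ligases that clear Frizzled receptors, rose by 0.48 (SE 0.10), and Lgr5 (-0.72, edgeR adjusted p = 0.0561) and Lgr6 (0.49, 0.183) did not pass.

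Among secreted inhibitors 12 of 15 were tested, 1 rose and 3 fell, with a list median of -0.54. The same shares of all genes, 14% higher and 12.2% lower, stand beside the counts of this and the next 2 lists. Dkk1, which blocks the co-receptors, fell by 2.42 on the log2 scale (SE 0.36), at 0.807 ± 0.151 CPM at high and 4.34 ± 1.27 CPM at low pressure (SD, n = 3 each). Frzb (-2.14, SE 0.35) and Sfrp1 (-0.60, SE 0.18), both of the secreted Frizzled-related family, fell, while Trabd2b, which cleaves WNT proteins, rose (0.69, SE 0.14). Of 24 cytoplasmic and nuclear transducers 5 rose and 8 fell, with a list median of -0.24. Besides Lef1, Gsk3b (-0.59), a kinase of the destruction complex, and Tcf7 (-0.55), a factor of the same family as Lef1, fell. Dvl1 (0.83), which relays the signal from Frizzled, rose. These families did not move together, since Gsk3a (0.55) and Tcf7l1 (0.58) rose and Tcf7l2 (-0.34) did not pass. The list of beta-catenin targets had 3 of 18 tested genes higher and 4 lower, and its median was -0.07. Among its called genes Lef1 and Tcf7 are also listed as transducers, Dkk1 as an inhibitor and Rnf43 in the R-spondin module, so these lists are not separate counts. Its leading riser, the epithelial factor Nkx2-1 (1.06), is also one of the 10 epithelial markers. Myc (-0.69, SE 0.13) fell.

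**Figure D4:**
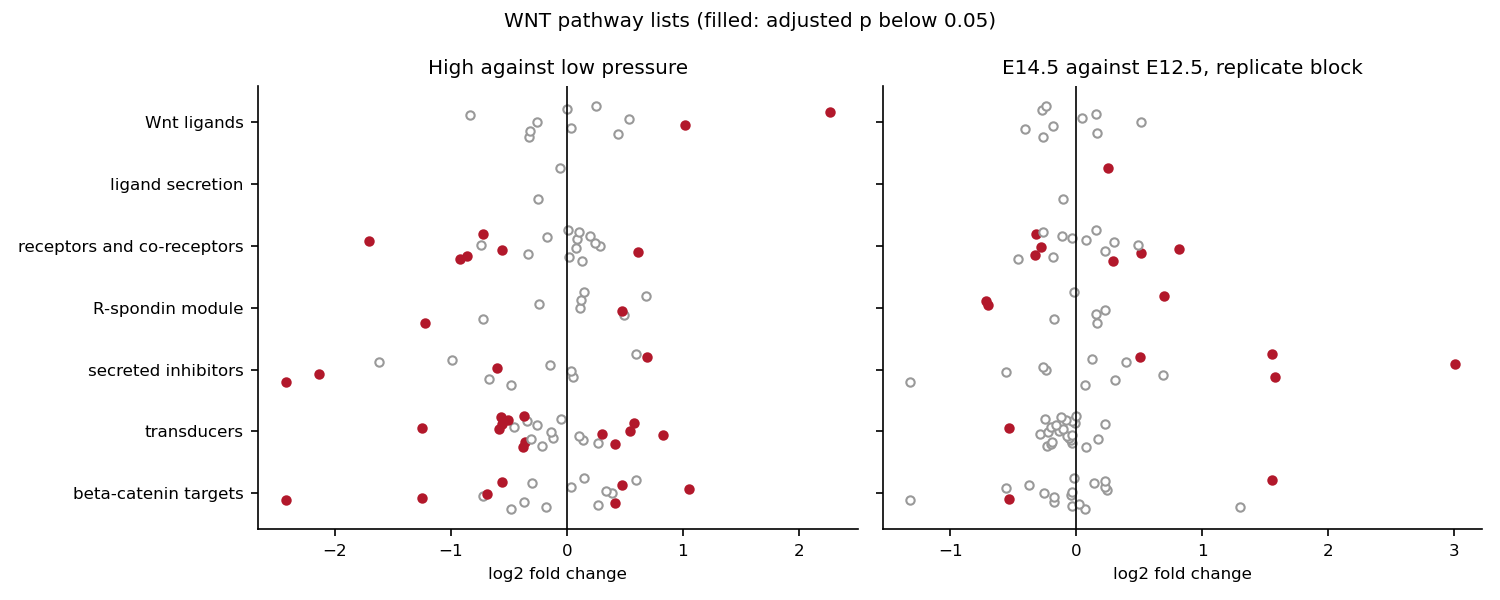
Log2 fold changes (x axis) of all tested genes in the 7 WNT pathway lists (rows), in the pressure comparison and, with the replicate block, between E14.5 and E12.5, filled where the adjusted p was below 0.05. Among the secreted inhibitors 1 rose and 3 fell at high pressure, and 4 rose and 0 fell at E14.5.

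The second set of comparisons asked how these genes changed in lungs developing in the embryo. Fits without a block for the replicate number called 0 members and 0 genes of 14242 (0%) in any comparison of 2 stages with edgeR, and at an unadjusted p under 0.05 they gave 2 members and 1328 genes for E14.5 against E12.5, 2 members and 977 genes for E14.5 against E13.5, and 0 members and 123 genes for E13.5 against E12.5. DESeq2 called 1 member, Wif1, in both comparisons of E14.5, beside 3.45% of all genes against E12.5 and 2.06% against E13.5, and it called 0 members for E13.5 against E12.5. With the block, which removes the shared level of same-numbered libraries (replicate 1 stood furthest apart), Wif1 rose and Lef1 and Rspo2 fell by E14.5. That is 3 of 10 members, 1 higher and 2 lower, in both comparisons of E14.5. Of all genes tested 11% passed against E12.5 (7.33% higher and 3.63% lower) and 6.01% against E13.5 (4.15% higher and 1.86% lower).

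Wif1 had 2.02, 1.76 and 1.15 CPM in replicates 1 to 3 at E12.5, 1.43, 2.40 and 1.56 CPM at E13.5, and 5.10, 4.41 and 4.80 CPM at E14.5. Every E14.5 library lay above all 6 earlier ones. Between E14.5 and E13.5 such a lack of overlap was seen for 12% of all genes tested, and for 2 members, Wif1 and Rspo2. The log2 fold change of Wif1 for E14.5 against E12.5 was 1.55 with the block (SE 0.27, edgeR adjusted p = 0.00594), against 1.53 without it (adjusted p = 0.0982). For E14.5 against E13.5 it was 1.42 with the block (SE 0.27, edgeR adjusted p = 0.0133). Wif1 (ENSMUSG00000020218.11, chromosome 10, 121033960 to 121100650, plus strand) rests on few reads in these libraries, at 23 to 46 counts at E12.5 and E13.5 and 84 to 102 counts at E14.5.

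Rspo2 (ENSMUSG00000051920.7, chromosome 15, 43020794 to 43170826, minus strand) had 54.5, 65.1 and 66.8 CPM at E12.5, 54.2, 80.7 and 59.1 CPM at E13.5, and 28.2, 38.8 and 47.6 CPM at E14.5. The E14.5 values lay below all earlier ones. With the block its log2 fold change was -0.72 for E14.5 against E12.5 (SE 0.13, edgeR adjusted p = 0.00984) and -0.77 for E14.5 against E13.5 (SE 0.13, edgeR adjusted p = 0.0119). Without the block the first of these was -0.70 (adjusted p = 0.317).

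Lef1 had 72.0, 105 and 130 CPM at E12.5, 77.0, 114 and 117 CPM at E13.5, and 48.6, 68.8 and 96.6 CPM at E14.5. The stages overlapped, replicate 1 was the lowest library at each of them, and every numbered pair was lower at E14.5 than at E12.5. The log2 fold change was -0.53 for E14.5 against E12.5 with the block (SE 0.09, edgeR adjusted p = 0.00496) and -0.55 for E14.5 against E13.5 (SE 0.09, edgeR adjusted p = 0.00736). Without the block the first was -0.52, with an adjusted p = 0.789.

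**Figure D5:**
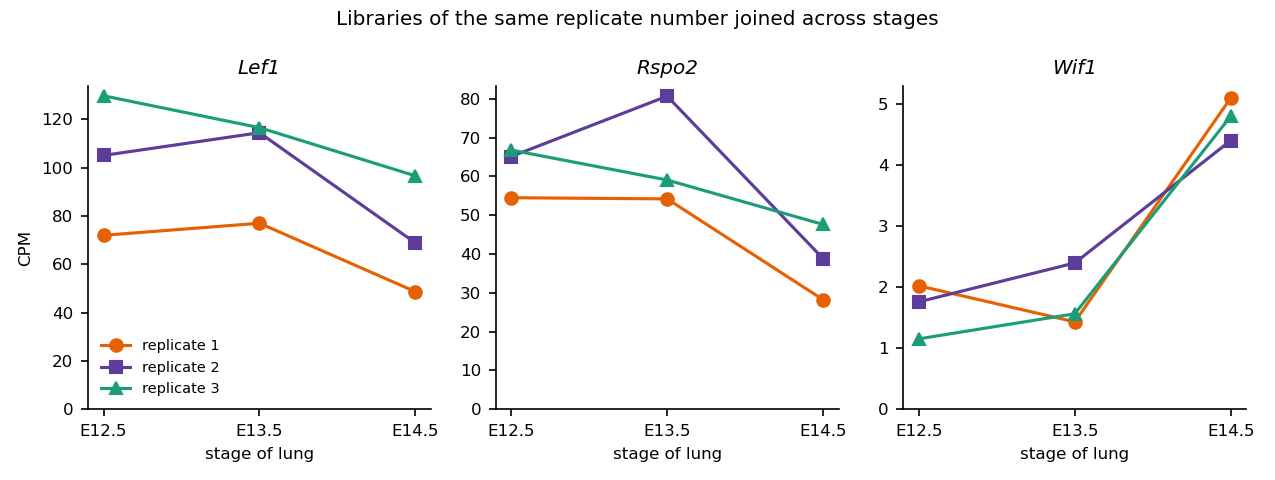
CPM of Lef1, Rspo2 and Wif1 (y axis) at the 3 stages (x axis), with libraries of the same replicate number joined by a line. All 3 lines of Lef1 and of Rspo2 end lower at E14.5 than at E12.5, and all 3 lines of Wif1 end higher.

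These calls were fitted again without replicate 1 of the time series. When its 3 libraries were left out of the blocked fit, Lef1 (-0.52, edgeR adjusted p = 0.031) and Wif1 (1.68, 0.0161) still passed for E14.5 against E12.5, and Rspo2 did not (-0.61, 0.0744), beside 8.35% of all genes. For E14.5 against E13.5 none of these 3 passed in that fit (edgeR adjusted p = 0.0825, 0.0927 and 0.119 for Lef1, Wif1 and Rspo2), with 1.24% of all genes called. Their log2 fold changes there were -0.50, 1.24 and -0.69. That fit held fewer libraries, and whether the lost calls came from this or from replicate 1 itself was not tested. The blocked fit with GC and length offsets called 3 members for E14.5 against E13.5 (10.2% of all genes) and 4 for E14.5 against E12.5 (19.9%). The added one was Wnt2b (-0.44, edgeR adjusted p = 0.0492). In that comparison the median log2 fold change over all genes was -0.0817 with the offsets and -0.0034 with the block alone. Summed markers of heart and striated muscle were at 278 to 1226 CPM at E14.5 and 6.06 to 34.3 CPM at E12.5, and summed red cell markers at 45.5 to 117 CPM at E14.5 and 126 to 315 CPM at E12.5, with Hba-a1 at 0 in every group. Of the 7 endothelial markers 6 rose and 0 fell with the block. Whether these moved the members was not tested.

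For E13.5 against E12.5 the log2 fold changes of the 10 members lay between -0.29 and 0.28, with SEs of 0.22 to 0.49. The blocked fit called 0 of them, with an adjusted p = 0.9995 for each, and 1 of all genes tested (0.00702%). A test of whether the second day differed from the first called 0 members with or without the block, and 0 with DESeq2. At an unadjusted p under 0.05 it gave 1 member (Wif1) and 233 of 14242 genes without the block. With the block that threshold gave 3 members (Lef1, Wif1 and Rspo2), and the count over all genes is not given here. At the adjusted threshold 0.0211% of all genes passed with the block and 0.0281% with DESeq2. With the block that difference was -0.58 for Lef1 (SE 0.15, edgeR adjusted p = 0.35), 1.29 for Wif1 (SE 0.49, 0.56) and -0.82 for Rspo2 (SE 0.22, 0.366). That their changes belong to the second day is therefore not shown.

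The other 7 members did not pass for E14.5 against E12.5, at log2 fold changes of -0.56 to 0.51 with the block. Notum had 9.01, 4.74 and 4.41 CPM at E12.5, 6.69, 3.60 and 4.54 CPM at E13.5 and 4.20, 3.67 and 3.94 CPM at E14.5. Its E14.5 libraries all lay below those of E12.5, with a log2 fold change of -0.56 (SE 0.21, edgeR adjusted p = 0.113). Replicate 1 carried much of this, since the blocked value for Notum without its 3 libraries was -0.27 (edgeR adjusted p = 0.524). Wnt2b had 37.0, 31.6 and 24.2 CPM at E14.5, against 40.5, 38.6 and 41.8 CPM at E12.5, which did not overlap either (-0.40, SE 0.14, edgeR adjusted p = 0.0925). In total 4 members, Wnt2b, Notum, Wif1 and Rspo2, had no overlap between E14.5 and E12.5, as did 14.1% of all genes tested. Wnt5a averaged 46.8 ± 24.2 CPM at E14.5 and 32.04 ± 14.3 CPM at E12.5 (SD, n = 3 each; 0.51 with the block, edgeR adjusted p = 0.0943).

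Axin2 stood at 36.2 ± 8.83 CPM at E12.5, then 37.0 ± 8.65 CPM (E13.5) and 35.2 ± 7.35 CPM (E14.5; SD, n = 3 each). With the block its log2 fold change for E14.5 against E12.5 was -0.04 (SE 0.10). Wnt2 averaged 105 ± 14.1, 128 ± 34.0 and 120 ± 18.6 CPM at the successive stages (SD, n = 3 each), and Wnt11 22.6 ± 3.47, 20.9 ± 8.40 and 18.9 ± 3.99 CPM. Wnt7b had 111, 105 and 92.4 CPM in replicate 1 of the successive stages, against 37.5 to 57.8 CPM in replicates 2 and 3. Replicate 1 was the highest library at all 3 stages for 4 members (Wnt7b, Wnt11, Axin2 and Notum), as for 36.7% of all genes tested, and the lowest at all 3 for Wnt5a, Lef1 and Rspo2, as for 31.2%.

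The pathway lists were also compared between E14.5 and E12.5 with the block, where 11% of all genes passed. Of 13 secreted inhibitors tested 4 rose and 0 fell: Wif1, Dkk3 (1.58, SE 0.32), the Frizzled-related Sfrp5 (3.00, SE 0.52) and Trabd2b (0.50). Sfrp5 had 83 counts in the 3 E14.5 libraries and 11 in the 3 of E12.5. Trabd2b also rose at high pressure, while Dkk1 and Frzb, which fell there, were not called between these stages. In the R-spondin module Rspo1 (-0.70, SE 0.15) fell with Rspo2 and Rspo3 rose (0.70, SE 0.18), among 8 genes tested. Of 16 receptors 3 rose (Fzd6 at 0.82, Fzd4 at 0.51 and Fzd1 at 0.29) and 3 fell (Fzd3, Ror1 and Fzd7), and of 9 Wnt ligands 0 passed. Among 24 transducers 0 rose and Lef1 alone fell, and among 19 beta-catenin targets Wif1 rose and Lef1 fell. The median log2 fold changes were 0.30 for the inhibitors and -0.10 for the transducers, beside 0.00 over all genes.

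Across all 5 groups, scaled together, cultured and fresh lungs differed in some members by more than the groups spread. Culture and sequencing table cannot be told apart, and no test was made. The share of all genes that part in this way is not given here, so it is not shown to be particular to these members. Wif1 had 13.2 to 24.5 CPM at high pressure and 9.28 to 14.53 CPM at low pressure, against 1.17 to 5.03 CPM in the 9 fresh libraries. Wnt11 likewise had 53.6 to 57.9 CPM at high pressure and 32.1 to 50.2 CPM at low pressure, against 15.9 to 30.2 CPM in the fresh libraries. For Lef1 the order ran from E13.5 (104 CPM) through E12.5 (103), low pressure (98.9) and E14.5 (71.1) to high pressure (41.6), and only the last step showed no overlap between neighbours. The order for Rspo2 was E13.5 (65.3 CPM), E12.5 (62.4), E14.5 (38.0), low pressure (31.9) and high pressure (27.0), with no overlap only between E12.5 and E14.5. Wnt2, Wnt2b, Wnt5a, Wnt7b, Axin2 and Notum overlapped between every pair of neighbours in their orders.

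By a rule on likeness, the 3 genes whose log2 CPM followed Axin2 most closely over the 15 libraries, each table centred on its own mean, were Bcar3 (Pearson r = 0.914), Itprip (0.911) and Boc (0.911), searched among the 11153 genes that averaged 5 CPM or more. For Wnt2 they were Lin7a (0.831), Klf13 (0.811) and Phyhd1 (0.804). These libraries share the features given above for replicate 1 of the time series and low pressure replicate 3, so the values describe these libraries alone. Wnt5a, Wnt7b, Axin2, Lef1 and Notum overlap annotated antisense genes, and Wnt11 overlaps a pseudogene on the other strand (Gm8398). Since the strand setting of the counting is not given in the sources used here, reads of such pairs could not be told apart. Wnt2b (Gm43846) and Lef1 (Gm42449) each also overlap an annotated gene on their own strand.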

How the data were processed

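Whole-lung RNA was sequenced in 15 libraries. Per the submitters' processing notes, cutadapt 1.6, Bowtie 1.1.1, TopHat, HTSeq and DESeq2 were used on build mm10. Annotation, strand setting and filters: not given in the sources used here. The authors deposited raw read counts per gene in a table of 6 cultured and a table of 9 fresh libraries, and every value comes from these counts. The deposited normalized and log-scaled tables were not used.

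The tables were fitted separately in R 4.3.3 by edgeR 4.0.16 (filterByExpr by group, TMM scaling, robust quasi-likelihood F-test), after tests on simulated counts. Calls are p-values below 0.05 once adjusted by Benjamini-Hochberg across the whole table. CPM uses TMM effective library sizes, and the SE is the log2 fold change divided by the square root of F. Alternatives were DESeq2 1.42.0, other scalings, no filter, a replicate block, left-out libraries, a term for replicate 1, and offsets for GC content and length (from GENCODE M21, for 94% of the genes tested).

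Same-numbered fresh libraries deviated together from their group means in all 9 pairs (r of 0.553 to 0.903, against -0.829 to 0.749 in the 18 pairs with other numbers), so blocked values stand beside the others. The contrast lies with replicate 1, which had r of 0.866 to 0.903 across stages and -0.829 to -0.661 with the other numbers. Between replicates 2 and 3, r was 0.573 to 0.749 across numbers and 0.553 to 0.721 within them. Deviations from a mean of 3 libraries cancel out within a group. A replicate 1 that stands apart therefore gives replicates 2 and 3 like deviations by arithmetic, and gives negative r with them. Whether numbers 2 and 3 pair could not be decided by this check. What the numbers mark is not stated. In the cultured table the 3 same-numbered pairs had r of -0.029 to -0.0039. No 2 libraries of a group agreed within sampling noise.

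All 10 members are described. Up to 4 genes of each pathway list are named by the smallest p at high against low pressure, and the other list genes named for E14.5 were chosen after their values were seen. Gsk3a, Tcf7l1 and Tcf7l2 were likewise added at the 2 pressures after their values were seen. Members, lists and tests were chosen with earlier results of these data known.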

Additional observations from a re-analysis of the deposited data

How the results depend on the processing

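Lef1 stayed lower and past the threshold for high against low pressure in all 13 alternatives. The number of members called there was 2 with DESeq2 (Wnt11 and Lef1, beside 32.5% of all genes). It was 2 with GC and length offsets (Wnt2 and Lef1, beside 17.7%), against 1 otherwise. When single libraries were left out it was 1 to 7. The 7 arose without low pressure replicate 3 (41.1% of all genes), and 2 were called without low pressure replicate 1. With the replicate block Lef1 alone passed (-1.25) and 3137 genes were called in place of 3905. Same-numbered cultured libraries had r of -0.029 to -0.0039 over all genes compared. Yet the block called 6 of 7 endothelial markers lower, in place of 2. Whether the numbers pair the cultured libraries is therefore not decided. For the stages, the count without a block was 0 in each comparison. For E14.5 against E12.5 it was 1 with DESeq2 (beside 3.45% of all genes) and 3 with the replicate block (11%). It was 2 with the block and without replicate 1 (8.35%), and 4 with the block and GC and length offsets (19.9%). For E14.5 against E13.5 it was 1 with DESeq2 (2.06%), 3 with the block (6.01%) and 3 with the block and those offsets (10.2%). A term for replicate 1 gave 3 in both comparisons, and its share of all genes is not given here. The offsets and the term for replicate 1 were added after seeing the data. With the offsets the split of all blocked calls became 997 higher and 1674 lower for E14.5 against E12.5, in place of 1044 and 517. For E14.5 against E13.5 it became 564 and 802, in place of 591 and 265. The median log2 fold change over all genes moved as well, to -0.0817 from -0.0034 and to -0.0738 from -0.002. At high against low pressure it moved to -0.0555 from 0.0138. The cause of these changes was not tested.

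Reversed signs were seen in small differences that passed no test. At high against low pressure Wnt7b was -0.0088 with DESeq2 and with its size factors, and with GC and length offsets Wnt2b was -0.21, Wnt7b -0.21 and Notum -0.43. Lef1 for E13.5 against E12.5 was -0.0052 under upper quartile scaling, -0.013 with the block and without replicate 1, and -0.0078 with the block and offsets. When single libraries were left out, the pressure values ranged from -0.0402 to 0.16 for Wnt2b, -0.10 to 0.20 for Wnt7b and -0.11 to 0.26 for Notum. Those for E13.5 against E12.5 ranged from -0.19 to 0.21 for Lef1, -0.14 to 0.30 for Wif1 and -0.13 to 0.17 for Rspo2, and those for E14.5 against E12.5 from -0.77 to 0.21 for Wnt7b and -0.23 to 0.14 for Axin2. Depth limits Wif1 and Notum most in the fresh lungs.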
